A study of Mus musculus with 2 samples.

Results

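Osteopontin (Spp1), bone sialoprotein (Ibsp), dentin matrix protein 1 (Dmp1) and matrix Gla protein (Mgp) were followed in mouse mammary tumor cells and in the cells captured with them. These 4 bone matrix genes, of 33696 genes counted, were chosen by their measured levels in the same libraries, so the differences between the libraries and between tumor cells and other cells are given as descriptions. The study compared PyMT-M, which its authors class as macrophage-enriched (High-MAC), with PyMT-N, classed as not macrophage-enriched (Low-MAC). Both are cell lines derived from the MMTV-PyMT model, in which the mouse mammary tumor virus promoter drives the polyoma middle T oncogene in mammary epithelium. Both were injected into the mammary fat pad of female C57BL/6 mice that were 6 to 8 weeks old at transplantation, and neither the labels nor the methods name a treatment for these libraries. Cells of 3 tumors were pooled into 1 library per line, so no difference between PyMT-M and PyMT-N has a replicate check and no p-value was computed. Each group is therefore a single subline, and a difference between the sublines cannot be told apart from a difference between the libraries.

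Spp1, Ibsp and Dmp1 belong to the small integrin-binding glycoproteins of mineralized tissue, a family that also holds Dspp and Mepe and whose genes lie next to each other on one chromosome. Osteoblasts and osteocytes secrete these acidic proteins into bone, and odontoblasts into dentin. There they bind calcium and hydroxyapatite, and an Arg-Gly-Asp motif lets them bind integrins on cells. Mgp is a small vitamin K-dependent protein of cartilage and vessel wall that holds back calcification of soft tissue. Osteopontin and bone sialoprotein are also known from carcinomas, in particular from those that spread to bone.

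The Arg-Gly-Asp codons are shown because they are the integrin-binding feature shared by the 3 family members and were not used in choosing them. In the first GENCODE M21 transcript of each gene (GRCm38), a single in-frame run of Arg, Gly and Asp codons was found in Spp1 (codon 144 of 294), Ibsp (codon 293 of 324) and Dmp1 (codon 350 of 503), and none in the 104 codons of Mgp. The Spp1 stretch lies in exon 6 of 7 at chr5:104439466-104439504, the Ibsp stretch in exon 7 of 7 at chr5:104310460-104310498 and the Dmp1 stretch in exon 6 of 6 at chr5:104212492-104212530, all on the plus strand and all in coding sequence. Capitals mark the 3 codons in the lines that follow, which are 39 bases each.
Spp1: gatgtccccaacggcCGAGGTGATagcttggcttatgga
Ibsp: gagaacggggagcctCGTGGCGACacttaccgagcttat
Dmp1: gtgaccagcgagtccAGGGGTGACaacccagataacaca

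Sequence upstream of the start is shown for the same 3 genes because they lie close together on the chromosome and were all higher in PyMT-N. RefSeq promoter entries (GRCm38.p6) matched 3 of the 4 members, all but Mgp. The 250 bases before the first listed start were searched on both strands for TGTGGT (the core of Runx sites), TGANTCA (AP-1), CCAAT and TATAAA, and matches are in capitals. The motifs do not overlap each other in these windows.
Spp1 (chr5:104434861-104435110, plus strand): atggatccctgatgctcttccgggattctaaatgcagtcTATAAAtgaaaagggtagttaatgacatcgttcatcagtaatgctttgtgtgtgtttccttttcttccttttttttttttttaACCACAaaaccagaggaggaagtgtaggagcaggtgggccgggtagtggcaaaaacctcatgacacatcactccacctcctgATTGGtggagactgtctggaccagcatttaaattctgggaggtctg
Ibsp (chr5:104299037-104299286, plus strand): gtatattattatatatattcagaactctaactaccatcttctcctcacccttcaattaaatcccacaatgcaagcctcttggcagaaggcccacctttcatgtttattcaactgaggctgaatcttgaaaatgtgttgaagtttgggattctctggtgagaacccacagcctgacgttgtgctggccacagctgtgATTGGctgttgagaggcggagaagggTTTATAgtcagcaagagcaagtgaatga
Dmp1 (chr5:104197325-104197574, plus strand): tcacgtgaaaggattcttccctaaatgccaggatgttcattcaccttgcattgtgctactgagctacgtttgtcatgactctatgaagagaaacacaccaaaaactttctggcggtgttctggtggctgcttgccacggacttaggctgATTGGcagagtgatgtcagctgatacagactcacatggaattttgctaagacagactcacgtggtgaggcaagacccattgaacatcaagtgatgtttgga
Each of the 3 windows held 1 CCAAT match, 46 bases before the start in Spp1, 54 in Ibsp and 101 in Dmp1. The match is common, since 33.8% of the 32851 promoter windows of the table hold it. TATAAA was found 28 bases before the start of Ibsp and 211 before that of Spp1, against 12.4% of all windows. TGTGGT occurred in Spp1 alone, 128 bases before the start, against 14.0% of all windows. TGANTCA, held by 6.75% of windows, occurred in none of the 3. These are letter matches in 1 window per gene and were not tested as binding sites.

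The libraries were labelled endothelial. The study had removed CD45+ and Ter119+ cells, enriched CD31 and CD144 on beads and then sorted for both proteins. Among barcodes with at least 200 detected genes and at most 10% mitochondrial UMIs (unique molecular identifiers, each standing for 1 captured transcript), 6719 were kept in PyMT-M against 5607 in PyMT-N. Tumor cells, defined by at least 3 UMIs of Krt8, Krt18 and Rhox5 together and none of Pecam1 and Flt1, made up 4902 of these in PyMT-M (73.0%) and 3306 in PyMT-N (59.0%). Pecam1 and Flt1 are at 0 in these cells by definition, and Cdh5, which encodes CD144, stood at 3.71 and 1.99 CPM (UMIs of a gene per 1000000 UMIs of the class), so most captured cells went against the label. The definition rested on different genes in the libraries. Rhox5 gave 71.4% of the defining UMIs in PyMT-M and Krt18 gave 8 UMIs in all, whereas Krt18 gave 55.0% and Krt8 44.2% in PyMT-N. Other epithelial markers were scarce in both, with Cdh1 at 0.0745 and 0.106 CPM and Krt14 at 0.0579 and 0.331 CPM, while Vim reached 6124 and 2327 CPM. Epcam was unequal, at 3.52 CPM in PyMT-M (7.92% of tumor cells) and 0.410 CPM in PyMT-N (0.121%). Blood endothelial cells (at least 5 UMIs of Pecam1, Flt1, Emcn and Kdr, at most 1 of the tumor markers) numbered 598 and 1243. Lymphatic cells (at least 3 UMIs of Prox1, Mmrn1 and Reln) numbered 20 and 207, fibroblasts (Col3a1 at or above 3000 CPM) 58 and 63, and Ptprc+ cells 488 and 357. Classes can overlap, and of the PyMT-N lymphatic cells 174 were also in the blood endothelial class. The libraries shared 20 barcodes. Median depth was 23715.5 UMIs per tumor cell in PyMT-M against 20757.5 in PyMT-N, but 5195.5 and 12601 per blood endothelial cell. Intervals in brackets are exact 95% intervals and cover counting error only.

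All 4 genes were lower in PyMT-M than in PyMT-N tumor cells, by 14.4-fold for Spp1 (14.3 to 14.5), 448-fold for Ibsp (346 to 590.2), 28079-fold for Mgp (19551 to 41927) and 47682-fold for Dmp1 (8557 to 1.88e+06). Of 12553 genes with at least 200 UMIs over both sets of tumor cells, 42.0% differed by 2-fold or more in either direction and 22.3% were lower in PyMT-M, so a 2-fold difference was common between these libraries. By the ratio alone, Dmp1 had the lowest PyMT-M over PyMT-N value of these genes and Mgp the 3rd lowest. Ibsp was the 279th and Spp1 the 934th. Genes with 0 UMIs in a library were set at 3 counts, while Dmp1 kept its single PyMT-M count. The first place of Dmp1 depends on that choice. Together the 4 genes made up 3.25% of all tumor-cell UMIs in PyMT-N and 0.175% in PyMT-M. Counting at the 3′ end gives 1 UMI per captured molecule whatever the length of the transcript, so CPM levels were compared between genes without scaling to length.

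Spp1, the secreted integrin and CD44 ligand osteopontin, was the most abundant transcript of PyMT-N tumor cells, rank 1 of all genes by CPM. Its level was 1748 CPM in PyMT-M tumor cells (1741 to 1756) and 25199 CPM in PyMT-N tumor cells (25163 to 25235), a log2 ratio of -3.85 (-3.86 to -3.84). A UMI was found in 95.6% of PyMT-M tumor cells and in 3306 of 3306 PyMT-N tumor cells, where 0 cells without it allow a share of up to 0.0907% (3 cells of the total) or 0.112% by the exact interval. The typical cell differed as the sums did, with a median of 25 UMIs in PyMT-M (quartiles 9 and 57, highest 701) and 441.5 in PyMT-N (quartiles 235 and 769, highest 5608). After each cell was thinned to 5000 UMIs, 87.9% of PyMT-M cells and 100% of PyMT-N cells still held a UMI. The distributions overlapped at their edges: 11.1% of PyMT-M tumor cells had 100 or more UMIs of Spp1, while 6.41% of PyMT-N tumor cells had 10 to 99 and 5 cells had 1 to 9.

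Ibsp, the bone sialoprotein that nucleates hydroxyapatite, was close to absent from PyMT-M tumor cells and patchy in PyMT-N. PyMT-M tumor cells held 58 UMIs in all, 0.480 CPM (0.364 to 0.620), in 0.653% of cells. PyMT-N tumor cells held 16242 UMIs, 215 CPM (212 to 218), in 39.2% of cells, a log2 ratio of -8.81 (-9.21 to -8.44). Most PyMT-N transcripts came from few cells. The tenth of cells with most Ibsp held 76.4% of its UMIs, 13.5% of cells had 10 or more UMIs and held 84.8% of them, and the highest cell had 267. Thinned to 5000 UMIs per cell, the shares were 0.143% and 25.3%.

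Dmp1, an acidic matrix protein of osteocytes and odontoblasts, was all but absent from PyMT-M. A single UMI was counted over the 4902 PyMT-M tumor cells, 0.00827 CPM (0.000209 to 0.0461), against 29808 UMIs and 394.5 CPM (390.0 to 399.0) in PyMT-N. With 1 count on one side the ratio is loosely bounded, at a log2 of -15.54 (-20.84 to -13.06), an interval that takes in that of Mgp. In PyMT-N the transcript was widespread at low copy, in 76.2% of tumor cells with a median of 4 UMIs, a 99th percentile of 71 and a highest cell of 171. The tenth of cells with most Dmp1 held 47.2% of its UMIs, a more even spread than that of Ibsp. Of the cells thinned to 5000 UMIs, 0 of 4888 in PyMT-M against 54.8% in PyMT-N held a UMI.

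Mgp, the calcification inhibitor, was also all but confined to PyMT-N among tumor cells, where it ranked 6 of all genes. PyMT-M tumor cells held 29 UMIs, 0.240 CPM (0.161 to 0.345). PyMT-N tumor cells held 6737 CPM (6719 to 6756) in 99.9% of cells, a log2 ratio of -14.78 (-15.36 to -14.26). The 29 PyMT-M UMIs lay in 19 cells, of which 18 had 1 UMI and 1 had 11. In PyMT-N the median cell had 100 UMIs, 50.3% of cells had 100 or more, and only 4 of 3306 had none.

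**Figure D1:**
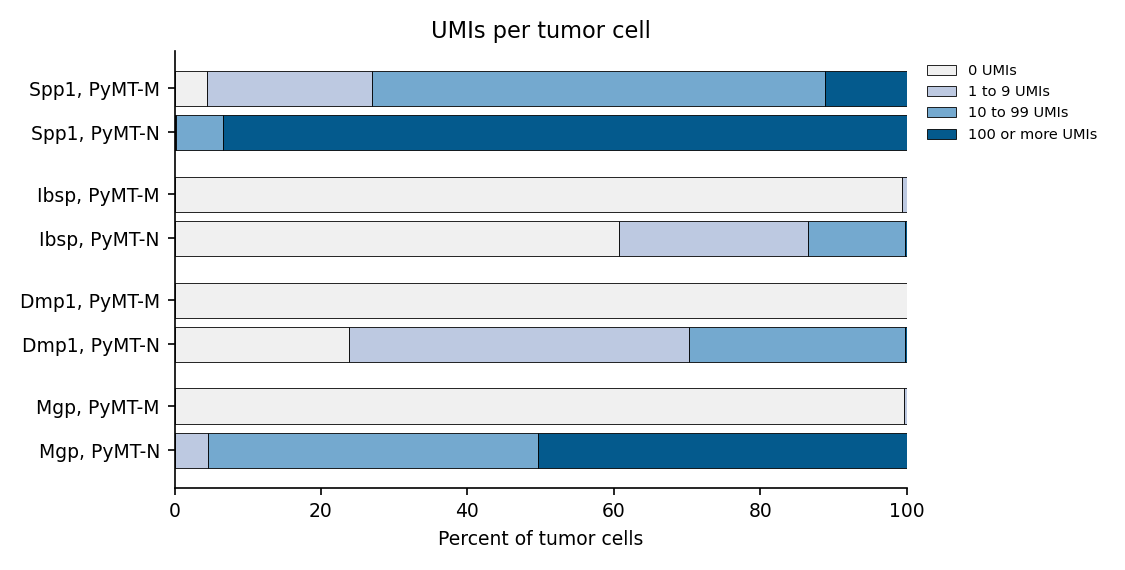
Share of tumor cells (horizontal axis, percent) by the number of UMIs of each gene in the cell, for 4902 PyMT-M and 3306 PyMT-N tumor cells. Spp1 reached 100 or more UMIs in 93.4% of PyMT-N and 11.1% of PyMT-M cells, and the other genes are at 0 in over 99% of PyMT-M cells.

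The value for Mgp depended on who counted as a tumor cell. With no tumor marker required and only the other classes removed, its log2 ratio was -11.99 in place of -14.78, and with cells of exactly 1 class it was -15.45. Among cells with no UMI of 4 cell cycle genes the Ibsp ratio was -10.86, resting on 1 PyMT-M UMI.

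Across the captured classes, the levels of the members were highest in PyMT-N tumor cells. The order of Spp1 levels in PyMT-N was tumor cells at 25199 CPM, Ptprc+ cells at 5039, fibroblasts at 4463, lymphatic cells at 1568 and blood endothelial cells at 223 CPM. In PyMT-M it was tumor cells at 1748, fibroblasts at 1120, Ptprc+ cells at 1056, lymphatic cells at 270 (20 cells) and blood endothelial cells at 40.1 CPM. The intervals of fibroblasts (1033 to 1214) and Ptprc+ cells (1016 to 1096) overlapped in PyMT-M, so these neighbours are not ordered. Class overlap moved several of these levels. In cells of exactly 1 class, Spp1 was 319 CPM in PyMT-M fibroblasts (45 cells), 4254 in PyMT-N fibroblasts (53 cells) and 7141 in PyMT-N lymphatic cells (32 cells), so the order below the tumor cells is not fixed. The lymphatic rule sets no limit on tumor markers, whereas the 174 cells shared with the endothelial class met its limit of 1 UMI. These 32 cells held 3385 of the 4445 Spp1 UMIs of the lymphatic class, and the part of tumor-cell RNA in their level was not tested. Tumor cells held 90.4% of all Spp1 UMIs of kept PyMT-M cells and 84.4% of those of PyMT-N.

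**Figure D2:**
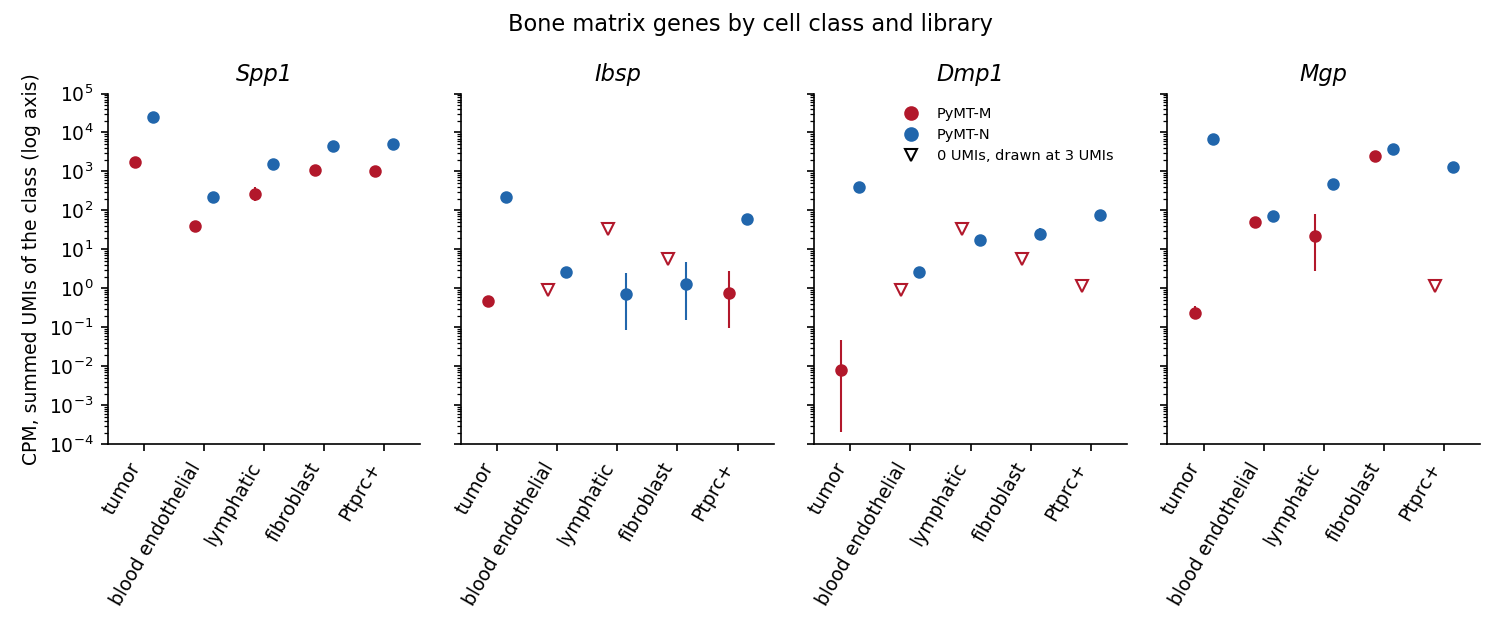
CPM (log axis) of summed UMIs by cell class, 1 panel per gene, PyMT-M in red and PyMT-N in blue, bars showing exact 95% counting intervals. Open triangles mark classes with 0 UMIs, drawn at the CPM of 3 UMIs, and PyMT-N tumor cells are highest for every gene, at 25199, 215, 394.5 and 6737 CPM.

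Tumor over blood endothelial levels in PyMT-N were 113-fold for Spp1, 82.6-fold for Ibsp, 148-fold for Dmp1 and 94.1-fold for Mgp. Against the 1091 endothelial cells with no tumor marker UMI they were 121-fold (117 to 125), 317-fold (172 to 661), 233-fold (158 to 360) and 109-fold (103 to 117), so the order of the genes changed with that choice. Of 11891 genes compared there, 13.9% were 2-fold or more higher in tumor cells. In PyMT-M the ratio of Spp1 was 43.6-fold, with 19.7% of 11324 genes 2-fold or more higher in tumor cells, and that of Mgp was turned round, at 0.00489. Ibsp and Dmp1 had 0 UMIs in the 598 PyMT-M endothelial cells, where 3 UMIs would be 0.897 CPM, more than the tumor cells showed.

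Of the blood endothelial cells, 86.7% in PyMT-N and 18.2% in PyMT-M held a Spp1 UMI, at median depths of 12601 and 5195.5 UMIs. The proportions between the members in these cells were set beside those in tumor cells. In PyMT-N there were 85.6 Spp1 UMIs per Ibsp UMI (63.8 to 118) in endothelial cells and 117 (115 to 119) in tumor cells. Per Dmp1 UMI there were 83.7 (62.7 to 115) and 63.9 (63.1 to 64.6). Per Mgp UMI there were 3.11 (2.92 to 3.32) and 3.74 (3.73 to 3.75). A single endothelial cell held 34 of the 45 Ibsp UMIs. In endothelial cells with no tumor marker UMI there were 307 Spp1 UMIs per Ibsp UMI (167 to 641), 123 per Dmp1 UMI (83.03 to 190) and 3.38 per Mgp UMI (3.14 to 3.64), none of which met the interval of tumor cells. The part of free RNA in these levels was not tested, and no expression in endothelial cells is read from them.

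Ptprc+ cells, which express the CD45 gene, had lower levels once cells with tumor markers were set aside. With at least 2 Ptprc UMIs and at most 1 tumor marker UMI (278 cells in each library), Spp1 was 280.2 CPM in place of 5039 in PyMT-N and 337 in place of 1056 in PyMT-M. Mgp was 63.2 in place of 1291 CPM and Ibsp 0.349 in place of 60.8 CPM in PyMT-N. These Spp1 and Mgp levels of PyMT-N were near the 223 and 71.6 CPM of its blood endothelial cells. Macrophages of tumors are known for Spp1, so these cells were split by 6 macrophage markers (Lyz2, Cd68, Adgre1, C1qa, C1qb and Csf1r), a split chosen after the values were seen. In PyMT-N, Spp1 was 301 CPM (277 to 326) in 120 cells with 5 or more UMIs of these markers and 247 CPM (210 to 287) in 125 cells with at most 1. In PyMT-M it was 271 CPM (221 to 329) in 95 such cells and 444 CPM (373 to 525) in 169. The intervals overlapped in PyMT-N, so its macrophage-marked and other cells are not ordered. In PyMT-M the macrophage-marked cells were lower by CPM, but the 444 CPM came from 137 UMIs in 9.47% of cells. In PyMT-N 87.5% of the macrophage-marked cells held a Spp1 UMI and 69.6% of the others, at median depths of 13858 and 4049 UMIs. In PyMT-M the shares were 25.3% and 9.47%, at 3830 and 1467 UMIs. The part of depth in these shares was not tested, and no macrophage source of Spp1 is read from them.

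Mgp was also high in the fibroblasts of both libraries. It reached 2457 CPM (2326 to 2593) in the 58 PyMT-M fibroblasts and 3693 CPM (3597 to 3791) in the 63 PyMT-N fibroblasts, below the 6737 CPM of PyMT-N tumor cells. In fibroblasts of exactly 1 class it was 3816 and 2246 CPM, so the order of the fibroblasts of the libraries turned with that choice. Few cells carried these sums, with 5 fibroblasts holding 70.5% of the Mgp UMIs of PyMT-M fibroblasts and 5 holding 59.5% of those of PyMT-N. Of the PyMT-N fibroblasts, 9 were also in the tumor class. In PyMT-N fibroblasts of exactly 1 class, Spp1 was 4254 CPM, above the 2246 CPM of Mgp. The part of free RNA and doublets in the fibroblast levels was not tested. The PyMT-M fibroblasts, 0.863% of kept cells, held 72.1% of the Mgp UMIs of that library. In PyMT-M blood endothelial cells Mgp was 49.0 CPM from 16 of 598 cells, and 5 of those cells held 86.6% of the UMIs. A single cell had 88 UMIs, and without cells of several classes the level was 23.3 CPM. In PyMT-N endothelial cells 46.4% held an Mgp UMI, at 71.6 CPM. Fibroblast markers in tumor cells summed to 370 CPM in PyMT-M and 454 CPM in PyMT-N over 7 genes, none at 0 in either.

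In PyMT-N tumor cells, Dmp1 was detected more often where Ibsp was. It was found in 83.8% of the 1297 Ibsp+ cells (81.7 to 85.8) and in 71.3% of the 2009 cells without Ibsp (69.2 to 73.3). Thinned to 5000 UMIs per cell, these shares were 67.5% (64.3 to 70.7) and 50.5% (48.6 to 52.5). All 4 transcripts were found in 32.9% of cells, Spp1 with Dmp1 and Mgp in 43.3%, Spp1 with Mgp alone in 17.4%, and Spp1 with Ibsp and Mgp in 6.35%. Every Ibsp+ cell held Spp1, as did every cell without Ibsp, since Spp1 was in all 3306 cells. In PyMT-M all 32 Ibsp+ tumor cells held Spp1, as did 95.6% of the cells without Ibsp.

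Levels moved together as well. When PyMT-N tumor cells were divided into quartiles by their Spp1 share, from 7613 CPM of Spp1 in the lowest to 52041 in the highest, Dmp1 was 134, 290, 454 and 775 CPM of the remaining UMIs. Ibsp was 69.9, 159, 256 and 416 CPM. Mgp varied less, from 5716 CPM in the lowest quartile to 8974 in the highest. Median depth was alike in the quartiles, between 20386 and 21501 UMIs. The share of cells with a Dmp1 UMI was 55.1% in the lowest quartile and 89.7% in the highest, and that with an Ibsp UMI 21.1% and 55.1%.

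**Figure D3:**
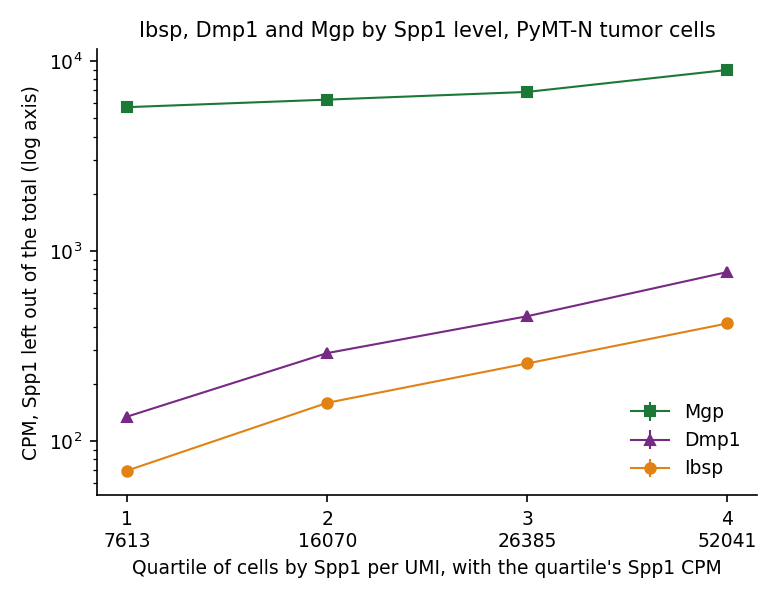
CPM with Spp1 left out of the total (log axis) of Ibsp, Dmp1 and Mgp in quartiles of PyMT-N tumor cells by Spp1 share (horizontal axis, with the Spp1 CPM of each quartile). Dmp1 runs from 134 to 775 CPM and Ibsp from 69.9 to 416 CPM, while Mgp runs from 5716 to 8974 CPM.

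Over the 3306 PyMT-N tumor cells, Pearson's r of log-scaled UMIs per 10000 was 0.43 between Spp1 and Dmp1, 0.29 between Spp1 and Ibsp and 0.19 between Ibsp and Dmp1. The r of Mgp with the others lay between 0.085 and 0.16, which in counts of this kind is no finding. These cells share 1 library and its free RNA, differ in depth and came from 3 pooled tumors that the barcodes do not tell apart. Thinned to 5000 UMIs, the r of Spp1 was 0.39 with Dmp1 and 0.26 with Ibsp. That of Ibsp with Dmp1 was 0.15, as low as the values of Mgp, and is no finding at this depth.

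Fibronectin (Fn1), a matrix glycoprotein and integrin ligand, was, with the members themselves left out of the ranking, the gene most like each of the 3 family members among 10857 genes detected in at least 5% of the cells, with r of 0.54 with Spp1, 0.40 with Dmp1 and 0.29 with Ibsp. After it, the genes most like Spp1 were Timp1, an inhibitor of matrix metalloproteinases, the protease Ctsl, the syndecan Sdc1 and the growth factor Tgfb1, with r from 0.45 to 0.39. For Dmp1 they were Tgfb1 (0.32), the phosphate transporter Slc20a1 (0.31), the nucleoside transporter Slc29a1 (0.27) and Fam20c (0.27), the kinase that phosphorylates secreted matrix proteins. For Ibsp they included the adhesion molecule Alcam, the glypican Gpc1 and the phospholipase Pla2g7, with r from 0.25 to 0.23. For Mgp they were Ppic, Arhgdib, Dbi, Emb and Micos10, with r of 0.24 at most. In PyMT-M tumor cells, where Spp1 alone exceeded 1 CPM, the genes most like it among 10559 were Vim (0.46), Ctsl (0.38), Ecm1 (0.38), Nt5e (0.37) and Gm10522 (0.36). Ctsl was among the first 5 of Spp1 in both libraries.

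By r at full depth, genes of phosphate and pyrophosphate handling stood near the top for Dmp1. Of the 6 mineralization genes that were detected in enough PyMT-N cells, 4 were among the 108 genes (the highest 1%) most like Dmp1: Slc20a1 at rank 3, Fam20c at 5, Enpp1, which makes pyrophosphate, at 6, and Ank, which exports it, at 7. With cells thinned as above, the r of Dmp1 with these 4 genes fell to 0.22, 0.17, 0.19 and 0.19. Ranks are given at full depth only. The same 4 were among the first 108 for Spp1, at ranks 8, 22, 50 and 97. Thinned, their r with Spp1 was 0.32, 0.22, 0.18 and 0.16. For Ibsp there was 1 of the 6 (Slc20a1), and for Mgp 2 (Ank and Fam20c). The r of Ibsp with Slc20a1 was 0.20, and 0.14 after thinning. That of Mgp was 0.17 with Ank and 0.12 with Fam20c, and 0.17 and 0.062 after thinning. The thinned value of Ibsp and the values of Mgp are near those called no finding above. So are the thinned values of Spp1 with Enpp1 (0.18) and Ank (0.16). The same holds for those of Dmp1 with Fam20c (0.17), Enpp1 (0.19) and Ank (0.19). None of the 7 osteoblast and cartilage transcription factors measured was among the first 108 for any of the 4 members. Cells with 10 or more Dmp1 UMIs were then set against cells with none. Fam20c was 24.0 CPM in the 787 cells with none and 58.6 in the 984 cells with 10 or more, a fold of 2.44 (2.19 to 2.73). Enpp1 was 1.83-fold higher (1.75 to 1.92), Slc20a1 1.67-fold (1.62 to 1.71) and Ank 1.33-fold (1.32 to 1.35). Fn1 and Tgfb1, outside the mineralization list, were also higher, at 1.84-fold (1.82 to 1.85) and 1.71-fold (1.65 to 1.78). The rise was therefore not particular to mineralization genes. These genes had been ranked by likeness to Dmp1 in the same cells, so a rise with Dmp1 was built in. The phosphate transporter Slc20a2 was at 0.902-fold (0.800 to 1.02) and the osteoblast regulator Runx2 at 0.852-fold (0.794 to 0.914). The tumor markers Krt18 and Krt8 were at 1.30-fold and 1.06-fold, and median depth was 20067 and 21468.5 UMIs. Alpl, the phosphatase that degrades pyrophosphate in bone, had 4 UMIs over all PyMT-N tumor cells, and Phospho1 and Smpd3 had 0.

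**Figure D4:**
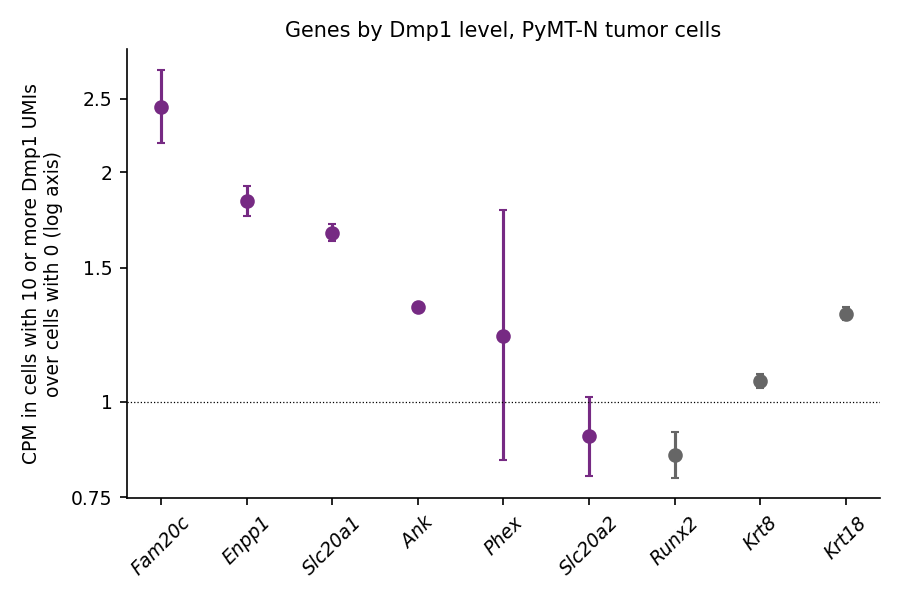
Ratio of CPM (log axis, Dmp1 left out of the total) between 984 PyMT-N tumor cells with 10 or more Dmp1 UMIs and 787 with 0, with exact 95% counting intervals. Mineralization genes are in purple and other genes in grey. Of the genes drawn, Fam20c is highest at 2.44-fold and Runx2 lowest at 0.852-fold. Fn1 (1.84-fold) and Tgfb1 (1.71-fold) are not drawn.

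Ibsp-high cells were compared with cells without Ibsp, all within the tumor class and so with its markers by definition. In the 447 PyMT-N tumor cells with 10 or more Ibsp UMIs, Spp1 stood at 35772 CPM, Dmp1 at 611 and Fn1 at 7062 CPM, against 21347, 332 and 4429 in the 2009 cells without Ibsp. Krt8 was 822 and 788 CPM and Krt18 1129 and 940 CPM in the same cells, but both genes define the class. Epcam, which does not, had 0 UMIs in the Ibsp-high cells (up to 0.344 CPM) and 0.648 CPM in those without Ibsp. The latter came from 29 UMIs in 0.0996% of cells. Cdh1 was at 0.187 CPM (0.0226 to 0.674) and 0.134 CPM (0.0492 to 0.292), from 2 and 6 UMIs. No difference in epithelial transcripts is read from these counts. Postn, a matrix protein of periosteum and stroma, was lower in the Ibsp-high cells, at 36.3 CPM (32.8 to 40.1) against 154 CPM (151 to 158). With the members left out of the ranking, Fn1 had the highest r with Ibsp of 10857 genes over all PyMT-N tumor cells, and Postn the lowest (-0.21). The rise of Fn1 and the fall of Postn were therefore built in.

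Cell cycle state differed between the libraries. By at least 2 UMIs of Mki67, Top2a, Cdk1 and Ccnb1 together, 83.6% of PyMT-M tumor cells and 13.5% of PyMT-N tumor cells were cycling. In PyMT-N, the level of Spp1 was 19135 CPM in cycling cells and 27325 in cells with no UMI of the 4 genes, 1.43-fold higher in the latter. Ibsp was 1.43-fold higher in non-cycling cells, Dmp1 1.56-fold and Mgp 1.18-fold. In PyMT-M, Spp1 was 1706 CPM in cycling and 1987 in non-cycling cells, 1.16-fold higher in the latter. Cycling cells were deeper, with medians of 28266 UMIs against 19506 in PyMT-N and 24923.5 against 18098.5 in PyMT-M. The parts of depth and of cell cycle state in these differences were not tested. Within non-cycling cells alone the Spp1 log2 ratio between the libraries was -3.78, close to the -3.85 over all tumor cells.

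Levels by depth were compared in 3 equal groups of PyMT-N tumor cells, from shallow to deep. Spp1 was 25419, 28320 and 23182 CPM and Ibsp 212, 277 and 178 CPM. Dmp1 was 554, 481 and 275 CPM, lowest in the deep group. The part of depth in these differences was not tested.

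Spp1, Ibsp and Dmp1 are neighbours with unlike levels, while Mgp lies on chromosome 6. Around Spp1 on the chromosome the RefSeq order is Gm17660, Sparcl1, Dspp, Dmp1, Ibsp, Mepe, Spp1, Pkd2 and Thoc2l. Dspp and Mepe, the remaining family members, had 1 and 6 UMIs in PyMT-N tumor cells and 0 and 1 in PyMT-M, both too few for a comparison. Sparcl1, a matrix glycoprotein related to Sparc, was 1.75 CPM in PyMT-M against 87.3 in PyMT-N (log2 ratio -5.64). Pkd2, an ion channel gene, stood at 24.5 and 82.7 CPM (-1.75), and Thoc2l at 43.2 and 39.7 CPM (0.12).

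Most markers of bone cells were near 0 in these tumor cells. Of 6 osteoblast genes, only Runx2 and Col1a1 exceeded 10 CPM in tumor cells of either library. Runx2 stood at 67.8 CPM in PyMT-M against 77.3 in PyMT-N, while Sp7, the osteoblast factor downstream of it, had 17 and 1 UMIs, Bglap (osteocalcin) 5 and 41, and Bglap2 2 and 17. Of 4 cartilage genes, Acan had 1 UMI in PyMT-M tumor cells and 0 in those of PyMT-N. Col2a1 was low but higher in PyMT-M, whose tumor cells held 170 UMIs (1.41 CPM), while those of PyMT-N held 5 (0.0662 CPM). Comp went the other way, as PyMT-N tumor cells reached 123 CPM against 0.0496 for PyMT-M. Sox9 was not near 0. PyMT-M tumor cells showed 151 CPM of Sox9, with a UMI in 87.9% of cells, and PyMT-N tumor cells 112 CPM, with a UMI in 68.9%.

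Gene lists related to the members were read against the 22.3% of all genes that were 2-fold or more lower in PyMT-M and the median log2 ratio of -0.039 over all of them. The lists were drawn up with earlier results of these data known, and share the comparison in which the members were chosen. Of the other bone matrix proteins, 7 of 8 genes with enough UMIs were lower in PyMT-M and none higher, with a median log2 ratio of -3.00. Biglycan (Bgn), a proteoglycan of bone and cartilage, was 4.43 CPM in PyMT-M against 1946 in PyMT-N (-8.78), Postn -6.56 and decorin (Dcn) -6.27. Col1a1, the main collagen of bone, was at -2.21, Sparc (osteonectin) at -1.03 and Col1a2 at -1.03. Of the vitamin K-dependent proteins and their enzymes, 4 of 5 were lower, with a median of -4.06. Without Mgp, which was chosen by these levels, 3 of 4 were lower, with a median of -2.65: the growth factor Gas6 (-5.26), the anticoagulant Pros1 (-4.06) and the carboxylase Ggcx (-1.24), which modifies Mgp.

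Of the mineralization genes, 5 of 7 were lower in PyMT-M, with a median of -2.39. Enpp1 had 15 UMIs in PyMT-M against 15569 in PyMT-N (-10.70), Fam20c was at -6.82, Slc20a1 at -3.58, Ank at -2.39 and the peptidase Phex at -2.30. Smpd3, a sphingomyelinase needed for bone mineral, was higher in PyMT-M, with 550 UMIs in PyMT-M against 0 in PyMT-N, a log2 ratio of at least 6.84 against a floor of 3 UMIs over the tumor cells (6.54 as the exact limit). Slc20a2 was within 2-fold (0.27), and Alpl, below the count minimum, had 171 UMIs in PyMT-M against 4. Of the transcription factors, 4 of 7 were lower, among them Msx1 with 1 and 447 UMIs (-9.48, -14.79 to -7.00), Runx1 (-1.90) and Twist1 (-1.08). Atf4, which also serves amino acid stress, was higher in PyMT-M (1.23). Runx2 (-0.19) and Sox9 (0.43) were within 2-fold.

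All 4 proteases of such matrix proteins that had enough UMIs were lower in PyMT-M, with a median of -2.42: Mmp2 (-3.05), Mmp3 (-2.87), Bmp1 (-1.97), which processes Dmp1, and Mmp9 (-1.43). Of the BMP ligands and receptors, 5 of 8 were lower and 2 higher, with a median of -2.20. The ligand Bmp2 was at -9.18 and the receptors Bmpr1b at -7.95 and Acvr1 at -2.70, while the ligand Bmp7 was at 6.29 and the receptor Acvrl1 at 1.91. Bmp4 had 0 UMIs in PyMT-M against 259, a log2 ratio of at most -7.11 at a floor of 3 UMIs over the tumor cells (-6.80 as the exact limit). Of the osteoclast regulators, Tnfsf11 (RANKL) had 1 UMI in PyMT-M against 701 in PyMT-N (-10.13, -15.44 to -7.65) and its decoy receptor Tnfrsf11b had 2 and 620 (-8.95, -12.00 to -7.09), whereas Pthlh was higher in PyMT-M (1.32) and Csf1 within 2-fold (0.66). On a total without mitochondrial, ribosomal-protein and hemoglobin genes all ratios moved up alike, that of Spp1 from -3.85 to -3.65. The median over genes became 0.15, and Col1a2, Itgb3, Sparc and Twist1 were among the genes then within 2-fold.

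**Figure D5:**
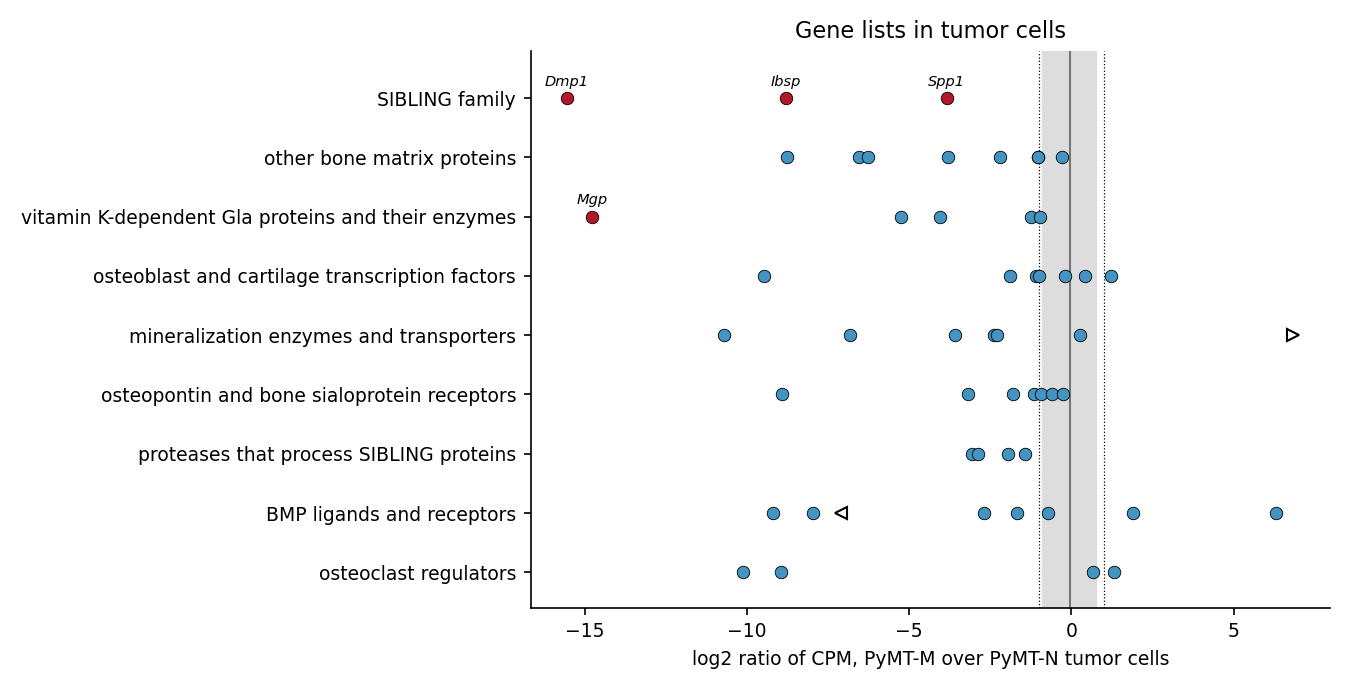
Log2 ratio of CPM between PyMT-M and PyMT-N tumor cells for the genes of 9 lists with at least 200 UMIs, members in red, with grey for the middle range between quartiles of all 12553 genes and dotted lines at 2-fold. Open triangles mark bounds for genes with 0 UMIs in one library. Dmp1 at -15.54 and Mgp at -14.78 lie farthest left.

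The receptors of osteopontin and bone sialoprotein were detected in tumor cells and in blood endothelial cells. Of 7 receptor genes with enough UMIs, 4 were lower in PyMT-M tumor cells (median -1.16): Itga8 with 3 and 902 UMIs (-8.91, -11.19 to -7.36), Itgb5 (-3.20), Itgav (-1.79) and Itgb3 (-1.16). Cd44 stood at 217 CPM in PyMT-M against 262 in PyMT-N tumor cells, within 2-fold. Itgav, the alpha chain of the vitronectin receptors, was 137 CPM in PyMT-N tumor cells and 122 in PyMT-N blood endothelial cells. Its partners differed by cell class. Itgb3 was 48.5 CPM in PyMT-N tumor cells and 98.1 in endothelial cells, and Itgb5 385 CPM in tumor cells and 9.37 in endothelial cells. In PyMT-M endothelial cells Itgb3 was 148 CPM and Itgb5 4.19, and Cd44 was 21.2 CPM there and 10.5 CPM in PyMT-N.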

How the data were processed

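Single-cell RNA was measured with 10x Genomics 3′ v3.1 chemistry in 1 library per tumor line, each a pool of cells from 3 tumors. The files deposited by the authors hold raw UMI counts for each gene in each barcode, made with Cell Ranger 8.0.0 on mm39 according to the submitters' processing notes. Dissociation is given as collagenase I in the sample labels and as collagenase II with dispase II in the study's methods. The libraries hold 7821 barcodes with 141067264 UMIs (PyMT-M) and 6974 with 116150425 (PyMT-N). The study's methods also left out cells whose number of detected genes lay over 2-fold from the median, which was an alternative here.

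UMIs were summed over the cells of a class and divided by the class total (CPM). Sums carry exact Poisson intervals, shares exact Clopper-Pearson intervals, and ratios conditional exact intervals, all at 95%. Genes with 0 UMIs in a library were set at 3 counts. The calculation was tested on simulated counts for the tumor-cell comparison over 12553 genes, 200 of them changed, and 95.3% of intervals covered the simulated ratio. Those counts were drawn from the Poisson model that the intervals assume, so coverage near 95% was built in. The test checks the arithmetic and leaves out the uneven spread of UMIs between cells. Doublets were scored with Scrublet (scanpy 1.11.5) and left in, with the 6% of highest scores left out as an alternative. Python 3.11.15, numpy 2.4.6, scipy 1.17.1 and pandas 2.3.3 were used. The members and lists were chosen with earlier results of these data known. Genes named are the members, the list genes past 2-fold (the 3 highest and 3 lowest per list) and the 5 most like each member, by Pearson's r across cells of the library where the member is higher, and across classes. Other genes were named after their values were seen, as were the Dmp1 and Ibsp levels split at 10 UMIs. Some items that these rules select are not reported here. Alternatives covered cell filters, tumor definition, class overlap, doublets, scaling, sums against means, cell cycle, thinning, count minimum and fold.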

Additional observations from a re-analysis of the deposited data

Results flagged for a closer look

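Mgp differed between the libraries in the direction of its tumor over endothelial ratio. The log2 ratio of tumor over blood endothelial cells was -7.68 in PyMT-M and 6.56 in PyMT-N. With 1 library each the difference was not tested, and in PyMT-M it rests on 29 tumor-cell UMIs and 164 endothelial UMIs.

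Transcripts of the members were also found in barcodes outside the comparisons. In kept barcodes that belonged to no class, 721 in PyMT-M and 693 in PyMT-N, Spp1 was 1534 CPM in PyMT-M and 18903 CPM in PyMT-N. Ibsp was 0.438 and 152 CPM in these barcodes, Dmp1 was 294.5 CPM in those of PyMT-N, and Mgp was 30.3 and 5954 CPM. Of these barcodes, 446 in PyMT-M and 519 in PyMT-N had 3 or more tumor marker UMIs together with a UMI of Pecam1 or Flt1. In barcodes that failed the cell filter, with median depths of 904 and 805 UMIs, Spp1 was 249.7 CPM in PyMT-M and 1803 CPM in PyMT-N. In the failed PyMT-N barcodes Ibsp was 8.78 CPM, Dmp1 39.8 CPM and Mgp 710.2 CPM.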

How the results depend on the processing

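All 4 members stayed lower in PyMT-M tumor cells, with log2 ratios from -3.94 to -3.65 for Spp1, -10.86 to -8.60 for Ibsp, -15.99 to -15.23 for Dmp1 and -15.77 to -11.99 for Mgp. Among cells with no cell cycle UMI (434 and 2087 cells) Spp1 was at -3.78, Ibsp at -10.86 and Mgp at -15.77, each of the last 2 from 1 PyMT-M UMI, and Dmp1 could not be computed with 0. With no tumor marker required Spp1 was at -3.84 and Mgp at -11.99, and with cells of exactly 1 class Mgp was at -15.45. Spp1 was at -3.88 with 10 tumor marker UMIs required, -3.86 without high doublet scores, -3.79 with Krt8 as the only tumor marker (an alternative chosen after seeing the data), -3.65 on the total without mitochondrial, ribosomal-protein and hemoglobin genes, -3.81 centred on the median gene and -3.94 as a mean over cells, where Ibsp was at -9.30. The cause of these shifts was not tested. Genes past 2-fold numbered 5273, 2712 at 4-fold and 6982 with a minimum of 50 UMIs. The share of Ibsp+ cells with Dmp1 was 67.5% after thinning and 77.5% with 2 UMIs of each required, against 83.8%, and both follow from fewer UMIs or a stricter limit. Between the libraries, the order turned for Mgp in fibroblasts (2457 and 3693 CPM, but 3816 and 2246 in cells of exactly 1 class). It also turned for Spp1 and Ibsp in Ptprc+ cells with at most 1 tumor marker UMI. Spp1 was 1056 and 5039 CPM, but 337 (296 to 382) and 280.2 (261 to 300) there, intervals that overlap. Ibsp was 0.781 and 60.8 CPM, but 1.39 and 0.349 there, from 1 UMI in each library. Depth limits Ibsp and Dmp1 in PyMT-M, where 1 UMI in tumor cells is 0.00827 CPM and 3 UMIs in endothelial cells are 0.897 CPM. No paired analysis was possible because each group is 1 library.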

Other observations

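The few PyMT-M tumor cells with Ibsp were not spread evenly. By quartiles of the Spp1 share, Ibsp was 0.0364, 0.0687, 0.473 and 1.24 CPM of the remaining UMIs, and in 3 equal groups by depth it was 0.0418, 0.206 and 0.843 CPM, from 58 UMIs in all. Depth and Spp1 moved together in these quartiles, with median depths from 22075 to 25606.5 UMIs, and their parts in the Ibsp values were not tested. The single PyMT-M tumor cell with a Dmp1 UMI also held Ibsp and Spp1.

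Across the 9 sums of a class in a library that had at least 50 cells, the gene most like Spp1 among 9890 was Ank (r = 0.99), the pyrophosphate exporter, followed by Snapin, Lrig1, Wnt10a and Gadd45a. The gene most like Dmp1 was Krt18 (0.995), which also defines the tumor class in PyMT-N, followed by Scx, Crabp2, Hhip and Slc47a1, and those most like Mgp were Arhgap42 (0.99), Bgn (0.98), Zfp503, Boc and Sspn. Those most like Ibsp were Fam110c (0.97), Dynap, Ralyl, Snrpg and Rps26. These sums share 2 libraries and their free RNA, and the correlations describe 9 points.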
